A study of Caenorhabditis elegans with 6 samples.

Results

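Nuclear hormone receptors are transcription factors that bind DNA through a zinc finger domain and carry a ligand-binding domain that can respond to steroids, fatty acids and other small lipophilic molecules. *C. elegans* has a greatly expanded family, most of it named with the prefix *nhr-*, and many of its genes lie next to each other on chromosome V. Most of the expansion descends from an ancestor related to mammalian HNF4, while a smaller set has clear orthologs in insects or vertebrates and is known from molting, cell fate, and the handling of fat, sterols and xenobiotics. The genes described here are all genes of the deposited table whose WormBase symbol begins with *nhr-*, which made 247 of the 20138 genes listed. Of these, 237 were protein-coding and 10 were pseudogenes. A further 36 of the 283 *nhr-* genes in the annotations used for names had no row in the table, among them *nhr-82* and *nhr-89*, and were not analysed here.

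RNA was taken from whole day 1 adults in 3 libraries labelled *fmo-4* OE and 3 WT libraries, which the labels call biological replicates. Both groups grew from the egg on plates with concentrated OP50 bacteria and were not treated. By the study's account, *fmo-4* OE worms carry extra copies of *fmo-4*, a flavin-containing monooxygenase gene. The study made ubiquitous and hypodermal overexpression strains, driven by the *eft-3* and *dpy-7* promoters, and the labels do not state which one was sequenced. Its qPCR found *fmo-4* RNA far above WT in both strains. Each library pooled many whole worms, so fewer cells of a type and less RNA per cell cannot be told apart in any value below.

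Totals were 17576872, 22675429 and 21336047 reads in *fmo-4* OE replicates 1 to 3 and 20020901, 17768502 and 24943501 reads in WT replicates 1 to 3. The gene *fmo-4* itself gave counts of 372, 476 and 368 under the *fmo-4* OE label, against counts of 522, 397 and 525 under the WT label, and was not higher (log2 fold change -0.24, SE 0.18, edgeR adjusted p = 0.947). Directions below therefore rest on the library labels, and *fmo-4* OE means the libraries that carry that label. *fmo-4* OE replicates 2 and 3 and WT replicate 3 stood apart in composition. Genes shorter than 1 kb took 20.02, 26.5 and 25.4% of counts in *fmo-4* OE replicates 1 to 3, against 19.7, 20.6 and 26.2% in WT replicates 1 to 3. WT replicate 2 stood apart from the other WT libraries in stage-related markers, which are given beside the receptors they bear on. Each tissue marker list had reads in every library, with intestine markers summing to between 21936 and 23599 counts per 1000000 counts (CPM) in *fmo-4* OE and between 26375 and 28877 in WT.

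Most of the receptor genes were detected in these adults, at low levels. A gene counted as detected at more than 3 reads in at least 1 library. By that limit 215 of the 247 genes were detected, 172 had more than 3 reads in every library, and 32 stayed at or below 3 reads in all 6 libraries. Between 216 and 224 of the genes had at least 1 read in any single library. Levels are given per gene length as RPKM, here reads per kilobase per 1000000 reads of the effective library size, averaged over the 6 libraries. The median level was 1.39 for the 247 receptor genes and 3.10 for the 18167 protein-coding genes of the table. The receptors were concentrated between 1 and 10 RPKM, where 128 of them lay (51.8%, against 26.4% of protein-coding genes). Only 20 reached 10 or more (8.10%, against 36.9%). A further 58 lay between 0.1 and 1 (23.5%, against 24.9%) and 41 lay under 0.1 (16.6%, against 11.8%).

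**Figure D1:**
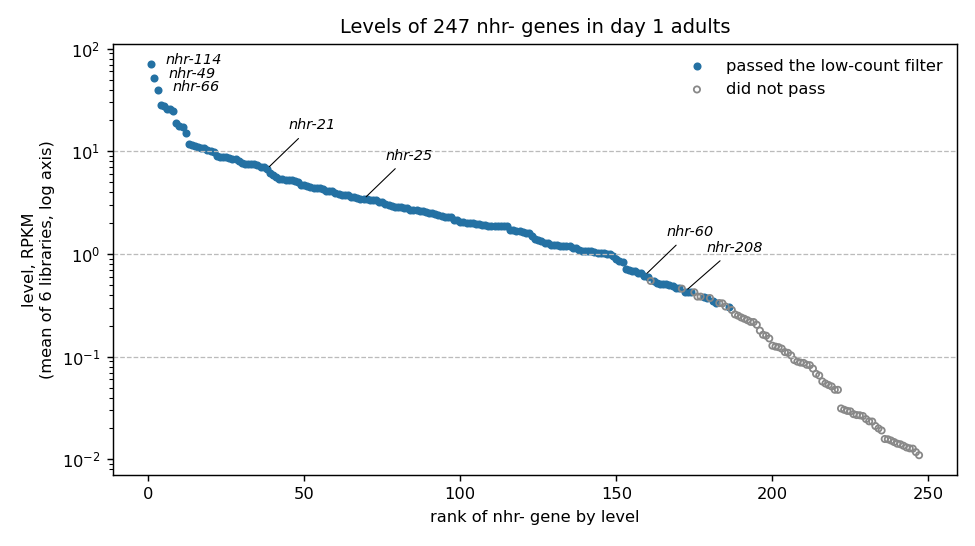
Level of each of the 247 *nhr-* genes in RPKM (mean of 6 libraries, log axis) against its rank. Filled points are the 177 genes that passed the filter on low counts and open points the 70 that did not. The dashed lines mark 0.1, 1 and 10, and 20 genes lie at 10 or more.

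The 3 most abundant receptors were known regulators of metabolism. *nhr-114*, an HNF4-related receptor that protects the germline from harmful dietary metabolites, led with a level of 71.7 RPKM. Its level was 62.7, 73.6 and 79.9 in *fmo-4* OE replicates 1 to 3, against 54.5, 73.7 and 85.6 in WT replicates 1 to 3. The ranges overlapped, and in both groups replicate 1 was the lowest. *nhr-49*, which acts in worms much as PPARα does in mammals and drives fatty acid desaturation and oxidation, followed at 52.4. It had 53.0, 52.2 and 47.5 in *fmo-4* OE, against 58.6, 52.3 and 50.7 in WT. *nhr-66*, an NHR-49 partner in lipid gene regulation, had 41.5, 33.3 and 38.7 in *fmo-4* OE, against 44.0, 40.8 and 37.5 in WT. For these receptors too the ranges of the groups overlapped, and the first 3 receptors together took 20.9% of all reads of the family.

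*nhr-97* (28.3), *nhr-274* (27.5), *nhr-23* (26.1), *nhr-86* (26.1) and *nhr-68* (24.6) formed a group of similar levels. *nhr-23* encodes the ortholog of vertebrate ROR and is needed for molting. *nhr-86* senses a metabolite of pathogenic bacteria and switches on immune genes. *nhr-68* acts with *nhr-10* to induce the propionate shunt when vitamin B12 is low. *nhr-46* (18.7) and *nhr-10* (17.8) closed the first 10. *nhr-114* exceeded *nhr-49* in 5 of 6 libraries, the exception being WT replicate 1, and *nhr-49* exceeded *nhr-66*, and *nhr-66* exceeded *nhr-97*, in 6 of 6. The order within the middle group was not stable, since *nhr-97* exceeded *nhr-274* in 2 of 6 libraries, *nhr-274* exceeded *nhr-23* in 4 of 6 and *nhr-23* exceeded *nhr-86* in 3 of 6. *nhr-86* exceeded *nhr-68* in 5 of 6, *nhr-68* exceeded *nhr-46* in 6 of 6, and *nhr-46* exceeded *nhr-10* in 4 of 6. Reads of *nhr-46*, *nhr-66*, *nhr-86* and *nhr-97* cannot be fully told apart from those of other listed genes that overlap them, which holds for 28 of the 247 genes.

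The first 10 receptors held 41.2% of the reads of the family, and none of them passed the test between the groups. Their log2 fold changes, *fmo-4* OE over WT, lay between -0.26 and 0.16 with standard errors of 0.12 to 0.30 (edgeR adjusted p = 0.914 to 0.991). The widest spread among them was in *nhr-10*, with levels of 23.7, 15.04 and 13.1 in *fmo-4* OE, against 24.4, 17.2 and 13.5 in WT. Replicate 1 was the highest in both groups.

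Receptors were unevenly spread over the chromosomes, in number and in level. Chromosome V carried 158 of the 247 (63.97%), with a median level of 1.11 RPKM, beside 1.08 for all protein-coding genes of that chromosome. The 19 receptors on X had the highest median, 5.32, beside 2.33 for protein-coding genes on X. The 31 on IV had a median of 3.41 beside 3.38, and the 14 on II had 2.54 beside 2.63. The 17 on I had a median of 0.251 beside 10.1, although *nhr-49* and *nhr-23* are among them, and the 8 on III had 2.23 beside 12.1. These levels are descriptions without a test.

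**Figure D2:**
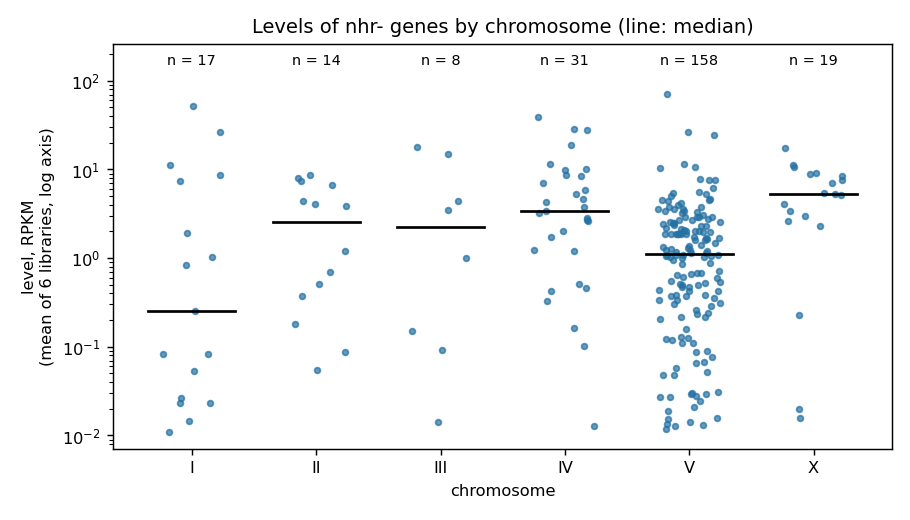
Levels of the *nhr-* genes on each chromosome in RPKM (mean of 6 libraries, log axis), with 1 point per gene and a line at the median. Chromosome V holds 158 of the genes at a median of 1.11, and X holds 19 at a median of 5.32.

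Many receptors lay side by side. In the order of the deposited coordinates, whose genome build is not given in the sources used here, 130 of the 247 had another *nhr-* gene as the next gene listed. They formed 41 runs, 10 of them with 5 or more genes, and 9 of those 10 lay on chromosome V. Levels differed widely within some runs and lay close in others, as in *nhr-138* and *nhr-100* on IV (9.92 to 10.1). The longest run had 8 genes, *nhr-186*, *nhr-188*, *nhr-189*, *nhr-187*, *nhr-157*, *nhr-158*, *nhr-159* and *nhr-124*, between 3852286 and 3886204 on V. Its levels ran from 0.0153 to 0.376, and 1 of the 8 passed the filter on low counts. In contrast, all 7 genes of the run from *nhr-56* to *nhr-96* passed, with levels of 1.22 to 3.59, as did all 7 from *nhr-161* to *nhr-42*, with levels of 0.953 to 6.13. Across all runs of 5 or more the median level was 1.39, and outside them it was 1.48. Neighbouring receptor genes can be similar in sequence, and how reads matching several of them were counted is not given in the sources used here.

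The deposited table assigned 137 of the genes to the Hormone_recep domain family and 102 to the zf-C4 zinc finger family, and 8 to neither. Median levels were 1.62 and 1.28 RPKM in the first and the second family. The 10 pseudogenes had a median of 0.397, and 9 of them were detected. The highest was *nhr-144* at 2.88.

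The share of reads taken by the whole family differed between the groups by less than the spread of the libraries. Reads of all 247 genes summed to 1657, 1443 and 1566 CPM in *fmo-4* OE replicates 1 to 3, against 1652, 1676 and 1467 in WT replicates 1 to 3. The sum was lowest in *fmo-4* OE replicate 2 and WT replicate 3, and next in *fmo-4* OE replicate 3, the 3 libraries with more reads in short genes. That this composition has a part in the sum was not tested. Means were 1556 ± 107 in *fmo-4* OE and 1598 ± 114.5 in WT (SD, n = 3 each), a difference of -42.7 (two-sided exact permutation test, p = 0.6, where 0.1 is the smallest p that 3 against 3 allows). Without *fmo-4* OE replicate 2 the difference was 13.5 (exact permutation p = 0.9).

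Receptor levels were then compared between the libraries labelled *fmo-4* OE and those labelled WT. Of the 247 receptors, 177 passed the filter on low counts and were tested by quasi-likelihood in edgeR (71.7%, beside 66.6% of all genes). A gene that passed through its level in 1 group alone had to differ, so counts over the genes tested do not stand for all 247. No receptor passed an adjusted p-value of 0.05, where 0.0447% of all 13413 genes tested did. The smallest adjusted p-value of a receptor was 0.583. At an unadjusted p-value under 0.05, *nhr-60*, *nhr-25* and *nhr-91* were higher (3 of 177, 1.69%), where 4.32% of all genes were higher. *nhr-21*, *nhr-137*, *nhr-143*, *nhr-62*, *nhr-53* and *nhr-208* were lower (6 of 177, 3.39%), where 3.01% of all genes were lower. Together 5.08% of the receptors met this limit, beside 7.34% of all genes, so the share of receptors called was not above the background. The DESeq2 Wald test gave 3 higher and 7 lower (1.69% and 3.95%), where 4.94% of all genes were higher and 3.32% lower. It also gave no receptor at an adjusted p-value of 0.05.

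The number of calls depended on single libraries. Without WT replicate 2 there were 11 higher receptors (5.95% of receptors, where 6.96% of all genes were higher). Without *fmo-4* OE replicate 1 there were 5 (2.76% of receptors, where 6.50% of all genes were higher). Without *fmo-4* OE replicate 2 there were 2 lower receptors (1.09%, where 1.93% of all genes were lower). The median log2 fold change of the 177 was -0.08 (quartiles -0.25 and 0.14), beside -0.02 for all genes tested (quartiles -0.18 and 0.21), with 74 above 0 and 103 below. Changes under 0.5 on the log2 scale made up 79.1% of the receptors and 79.2% of all genes, and 8 receptors reached a change of 1 or more. The median standard error was 0.32, beside 0.27 for all genes. Values of the 3 *fmo-4* OE libraries and the 3 WT libraries did not overlap for 23 receptors, 9 higher and 14 lower (12.99%, beside 11.1% of all genes).

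**Figure D3:**
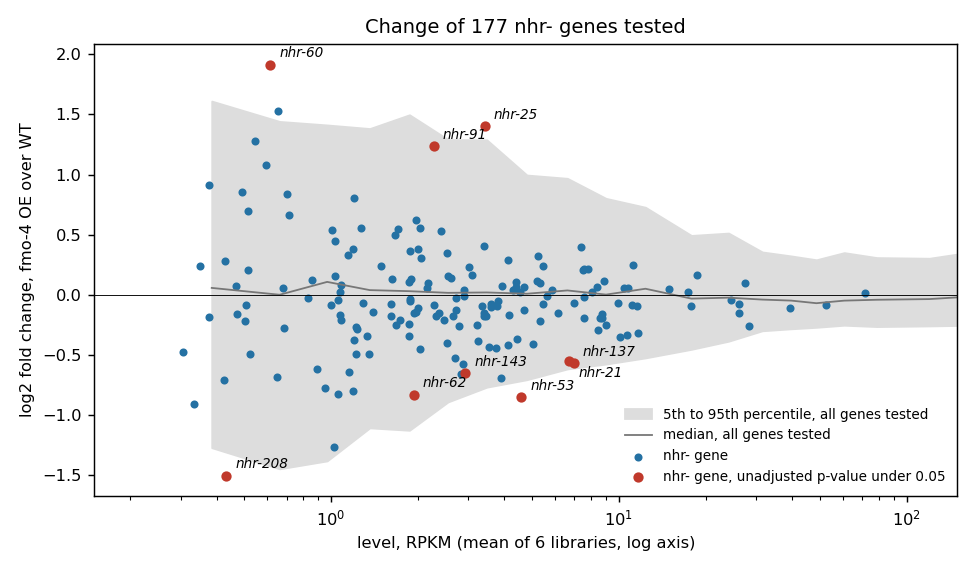
Log2 fold change (*fmo-4* OE over WT) against level in RPKM (mean of 6 libraries, log axis) for the 177 *nhr-* genes tested. The grey band spans the 5th to the 95th percentile of all genes tested at that level, and the red points are the 9 genes called at an unadjusted 0.05, 3 above and 6 below 0.

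*nhr-25* on chromosome X (13008493 to 13013953) encodes the ortholog of Ftz-F1 and SF-1 and acts in the epidermis and in molting. It had 145, 279 and 379 reads in *fmo-4* OE replicates 1 to 3, against 68, 138 and 84 in WT replicates 1 to 3. Normalized for library size it averaged 263 ± 97.9 in *fmo-4* OE and 99.6 ± 48.9 in WT (SD, n = 3 each). All *fmo-4* OE libraries were above all WT libraries, and WT replicate 2 came nearest to them with 156 normalized counts, against 166 in *fmo-4* OE replicate 1. The log2 fold change was 1.41 (SE 0.41, edgeR adjusted p = 0.583). It ranged from 1.11 without *fmo-4* OE replicate 3 to 1.87 without WT replicate 2, and stayed under an unadjusted p-value of 0.05 in 13 of 13 alternatives. Its lowest adjusted p-value over the alternatives was 0.0762, in DESeq2.

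*nhr-91*, also on X (15309374 to 15314885), encodes the ortholog of germ cell nuclear factor and of insect HR4. It had 82, 113 and 177 reads in *fmo-4* OE, against 34, 70 and 49 in WT. Normalized counts averaged 123 ± 40.3 in *fmo-4* OE and 52.2 ± 23.7 in WT (SD, n = 3 each), without overlap, and WT replicate 2 was again the highest of WT. The log2 fold change was 1.24 (SE 0.40, edgeR adjusted p = 0.583). It ranged from 0.94 without *fmo-4* OE replicate 3, where it missed an unadjusted 0.05, to 1.65 without WT replicate 2.

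*nhr-60* on chromosome V (15770302 to 15773226), studied in seam cells of the epidermis, had few reads, 22, 28 and 34 in *fmo-4* OE against 14, 3 and 5 in WT. The groups did not overlap, and the highest WT library was WT replicate 1, not WT replicate 2. The log2 fold change was 1.91 (SE 0.58, edgeR adjusted p = 0.583), and 2.78 without WT replicate 1. *nhr-60* overlaps *F57A10.4* on the opposite strand, and use of strand in the counting is not given in the sources used here, so reads of this pair cannot be told apart.

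The lower receptors were mostly of modest change. *nhr-21* on chromosome II had 165, 180 and 228 reads in *fmo-4* OE, against 301, 249 and 288 in WT. Its log2 fold change was -0.55 (SE 0.20, edgeR adjusted p = 0.597). *nhr-137* on X had 210, 199 and 235 reads in *fmo-4* OE, against 362, 292 and 304 in WT, a log2 fold change of -0.57 (SE 0.21, edgeR adjusted p = 0.597). In both genes every *fmo-4* OE library was below every WT library after normalization. *nhr-143* on V had 62, 83 and 57 reads in *fmo-4* OE, against 112, 90 and 118 in WT, a log2 fold change of -0.65 (SE 0.25, edgeR adjusted p = 0.617). *nhr-53* on V had 59, 76 and 87 reads in *fmo-4* OE, against 118, 157 and 117 in WT, a log2 fold change of -0.85 (SE 0.28, edgeR adjusted p = 0.583). Again the normalized counts of the groups did not overlap, and WT replicate 2 was the highest for *nhr-53*.

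*nhr-62*, an HNF4-like receptor on chromosome I that is required for the long life of diet-restricted worms, was among the lower genes. Its normalized counts were 53.7, 30.9 and 59.2 in *fmo-4* OE, against 60.7, 97.2 and 97.7 in WT, so the groups were separated by a narrow margin. The log2 fold change was -0.83 (SE 0.35, edgeR adjusted p = 0.664). *nhr-208* on V was the lowest in level of the 6, with 3, 6 and 9 reads in *fmo-4* OE, against 19, 11 and 22 in WT. Its log2 fold change was -1.50 (SE 0.51, edgeR adjusted p = 0.583).

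None of the 6 lower calls held whichever library was left out. *nhr-21* passed 0.05 neither without *fmo-4* OE replicate 1 or 2 nor without WT replicate 1 or 2, with log2 fold changes of -0.47 to -0.55 there. *nhr-137* did not pass without *fmo-4* OE replicate 2 or 3 or without WT replicate 1 or 2 (-0.47 to -0.59). *nhr-53* did not pass without *fmo-4* OE replicate 1 or 2 or without WT replicate 2 (-0.59 to -0.83). For *nhr-143* these were *fmo-4* OE replicates 1 and 3 and WT replicates 1 and 3 (-0.51 to -0.67). For *nhr-62* they were *fmo-4* OE replicates 1 and 2 and WT replicates 2 and 3 (-0.60 to -0.90), and for *nhr-208* *fmo-4* OE replicates 1 and 2 and WT replicates 1 and 3 (-1.23 to -1.47). Every one of these values kept its direction.

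**Figure D4:**
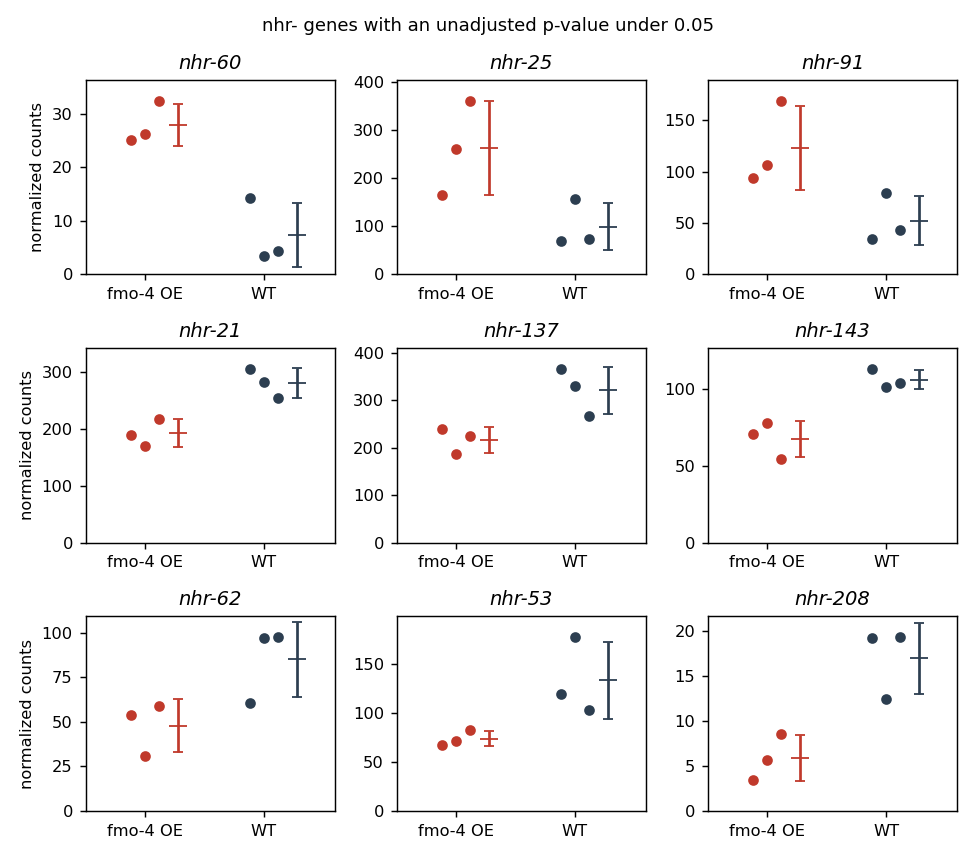
Normalized counts of the 9 *nhr-* genes called at an unadjusted 0.05 in the 3 *fmo-4* OE libraries (red) and the 3 WT libraries (dark blue), with points for libraries, from replicate 1 at the left of each group, and bars for the mean and SD. The groups do not overlap in any panel, and *nhr-25* spans 166 to 362 in *fmo-4* OE and 68.8 to 156 in WT.

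Receptors with known roles were grouped in 4 lists that overlap in part and hold 27 of the 247 genes, 26 of them tested. Of these 26, 2 were higher and 1 was lower at an unadjusted p-value under 0.05, where 4.32% of all genes tested were higher and 3.01% lower, and 8 of the 27 had levels of 10 or more. The list medians below are set beside -0.02 for all genes tested and carry no test.

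The 14 receptors with orthologs in insects or vertebrates had a median log2 fold change of 0.14 over the 13 tested. That median is the value of *nhr-41*, which was -0.12 without *fmo-4* OE replicate 3. *nhr-25* and *nhr-91* were higher and none was lower. The next largest changes were in *nhr-67* and *nhr-6*. *nhr-67*, the Tailless ortholog that specifies the anchor cell, had 34, 49 and 59 reads in *fmo-4* OE, against 23, 34 and 22 in WT. The groups did not overlap after normalization, and the log2 fold change of 0.81 (SE 0.38) missed the limit (edgeR adjusted p = 0.701). *nhr-6*, the NR4A ortholog needed in the spermatheca, had 63, 51 and 57 reads in *fmo-4* OE, against 27, 47 and 45 in WT (log2 fold change 0.54, SE 0.35, edgeR adjusted p = 0.882). *nhr-8*, a receptor of sterol and xenobiotic handling, had 107, 155 and 149 reads in *fmo-4* OE, against 206, 150 and 177 in WT. Its normalized counts were lower in every *fmo-4* OE library, with a log2 fold change of -0.38 (SE 0.22, edgeR adjusted p = 0.830). *nhr-14*, *nhr-48*, *nhr-64* and *nhr-69* had log2 fold changes of 0.11, 0.12, 0.21 and -0.19. *nhr-111* was not tested, with 3 reads in *fmo-4* OE replicate 3 and none in the other 5 libraries.

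The 5 receptors of molting and larval development had the highest list median, 0.45, which is the value of *nhr-85*. *nhr-25* was higher and *nhr-67* had the value given above. *nhr-85*, the Rev-erb and E75 ortholog that times larval gene expression, had 28, 25 and 67 reads in *fmo-4* OE, against 18, 31 and 39 in WT (log2 fold change 0.45, SE 0.48). Its high value in *fmo-4* OE replicate 3 set the sign, since the log2 fold change was -0.07 without that library. *nhr-41*, the ortholog of insect HR78, had a log2 fold change of 0.14, which was -0.12 without the same library. *nhr-23*, the most abundant of the 5, had 1273, 1321 and 1325 reads in *fmo-4* OE, against 1728, 1283 and 1347 in WT (log2 fold change -0.15, SE 0.17).

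The 11 receptors of lipid and vitamin B12 metabolism had a median of -0.04, with *nhr-25* higher and *nhr-62* lower. The other 9 lay between -0.11 and 0.21, among them the partners of NHR-49 in desaturase control, *nhr-80* (0.11) and *nhr-13* (-0.09), and *nhr-76* (0.04), which acts in fat loss driven by serotonin. The signs for *nhr-80*, *nhr-13* and *nhr-76* turned with single libraries left out. The 7 receptors of detoxification, immunity and stress had a median of -0.08, with none higher and none lower, and ranged from -0.38 for *nhr-8* to 0.23 for *nhr-28*. *nhr-57*, a hypoxia-induced gene, had -0.15, and *nhr-176*, which controls a drug-metabolising cytochrome P450, had -0.13.

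Of the 5 nuclear receptors looked up under other symbols, 3 were tested and none passed an unadjusted p-value of 0.05. *fax-1*, a regulator of neuron identity, had 17, 28 and 30 reads in *fmo-4* OE, against 5, 14 and 0 in WT (log2 fold change 1.87, SE 0.91, edgeR adjusted p = 0.717). *sex-1*, part of the count of X chromosomes in the embryo, had a log2 fold change of 0.34, and *daf-12*, the dafachronic acid receptor, had -0.27. *unc-55* and *odr-7* were not tested. None of 6 coregulator and ligand synthesis genes passed, among them the mediator subunit *mdt-15* (-0.05), the corepressor *din-1* (0.46) and *daf-9*, the cytochrome P450 of dafachronic acid synthesis (-0.87).

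Genes known as targets of these receptors were examined next. At an unadjusted p-value under 0.05, 4.32% of all genes tested were higher and 3.01% lower. These shares stand beside the counts in the target lists and in the marker lists below. Of 7 tested targets of NHR-49, NHR-80, NHR-13 and NHR-66, 1 was higher and none lower. *fat-5*, a palmitoyl-CoA desaturase, had 259, 402 and 352 reads in *fmo-4* OE, against 189, 236 and 188 in WT, and the groups did not overlap after normalization. Its log2 fold change was 0.70 (SE 0.24, edgeR adjusted p = 0.586), and it missed 0.05 without *fmo-4* OE replicate 2 (0.60) and without WT replicate 1 (0.63) or 3 (0.55). The stearoyl-CoA desaturases *fat-6* and *fat-7* had 0.13 and -0.19. *acs-2*, an acyl-CoA synthetase of mitochondrial fat oxidation, had -0.57 (SE 0.28, edgeR adjusted p = 0.724).

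All 6 targets of NHR-10, NHR-68 and NHR-114 had log2 fold changes below 0, with a median of -0.14, beside -0.02 for all genes tested. Of the 6, 2 genes of the propionate shunt were lower. *hphd-1*, the shunt's transhydrogenase, had 9497, 10961 and 10102 reads in *fmo-4* OE, against 13418, 11448 and 14916 in WT (log2 fold change -0.37, SE 0.12, edgeR adjusted p = 0.583). *acdh-1*, its acyl-CoA dehydrogenase, had 19414, 20836 and 21679 reads in *fmo-4* OE, against 24049, 24265 and 30564 in WT (log2 fold change -0.33, SE 0.13, edgeR adjusted p = 0.601). After normalization neither gene overlapped between the groups. *hphd-1* missed 0.05 without *fmo-4* OE replicate 2 (-0.37) or 3 (-0.32), and *acdh-1* without *fmo-4* OE replicate 2 (-0.29) or 3 (-0.33) and without WT replicate 2 (-0.30) or 3 (-0.32). The receptors themselves stayed between -0.09 and 0.02. The summed counts of the intestine marker list were also lower, at 21936, 22530 and 23599 CPM in *fmo-4* OE, against 26561, 28877 and 26375 in WT, but the yolk protein genes *vit-2* and *vit-5* made up 97.2 to 98.4% of this sum in *fmo-4* OE and 97.5 to 98.6% in WT. Of its 6 genes only *vit-5* was lower at an unadjusted 0.05 (log2 fold change -0.36). *ges-1* (-0.31), *vit-2* (-0.23) and *ifb-2* (-0.19) also lay below 0, and *elt-2* (0.28) and *act-5* (0.08) above 0. Normalized counts of *ges-1* were lower in every *fmo-4* OE library than in every WT library. The part of these markers in the values of *hphd-1* and *acdh-1* was not tested.

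Of 7 tested targets of NHR-23 and NHR-25, 1 was higher and none lower, with a list median of 0.66. *dpy-7*, a cuticle collagen, had 116, 384 and 463 reads in *fmo-4* OE, against 17, 143 and 34 in WT, and *fmo-4* OE replicate 1 lay below WT replicate 2. Its log2 fold change was 2.18 (SE 0.86, edgeR adjusted p = 0.642), 3.70 without WT replicate 2 and 1.70 without WT replicate 1, where it missed 0.05. It also missed 0.05 without *fmo-4* OE replicate 2 (2.05) or 3 (1.84) and without WT replicate 3 (1.80). *acn-1*, needed for molting, had 130, 270 and 476 reads in *fmo-4* OE, against 46, 188 and 62 in WT (log2 fold change 1.46, SE 0.67, edgeR adjusted p = 0.706). *noah-1*, a protein of the apical matrix, had 1.32 (SE 0.59, edgeR adjusted p = 0.697). Of the other tested targets, *grh-1* (0.66) and *mlt-10* (0.64) lay above 0, and *nas-37* (-0.08) and *lin-3* (-0.15) below 0. None of the 4 tested targets of NHR-8, NHR-86 and NHR-176 was higher or lower, with log2 fold changes of -0.59 for *irg-5* to 0.18 for *irg-4*.

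Stage-related marker lists were set beside *nhr-25* and *nhr-91*, and the larval molt cycle list came nearest to their order of libraries. The larval molt cycle list of 8 genes summed to 255, 270 and 387 CPM in *fmo-4* OE replicates 1 to 3, against 75.5, 233 and 72.9 in WT replicates 1 to 3. Of its 6 tested genes, *noah-2* (log2 fold change 1.57, edgeR adjusted p = 0.594) and *fbn-1* (1.30, edgeR adjusted p = 0.594) were higher at an unadjusted p-value under 0.05. Among the 6, *nas-37* (-0.08) alone lay below 0, and *bli-1* and *bli-5* were not tested. *noah-1*, *mlt-10* and *nas-37* of this list also stand among the targets of NHR-23 and NHR-25. The order of the libraries was the same for *nhr-25*, *nhr-91* and this list over the 4 highest values, with *fmo-4* OE replicate 3 first, then 2 and 1, and WT replicate 2 next. Early embryo markers summed to 13.5, 9.92 and 15.98 CPM in *fmo-4* OE, against 5.84, 11.9 and 4.17 in WT, and overlapped. Most of these reads were of *sdz-28*, which missed an unadjusted 0.05 (log2 fold change 0.79, edgeR adjusted p = 0.738). Among 3 tested, *tbx-38* was higher (log2 fold change 1.67, edgeR adjusted p = 0.675), with 10, 13 and 17 reads in *fmo-4* OE, against 1, 8 and 3 in WT. Sperm markers ran the other way, at 17.4, 17.6 and 14.3 in *fmo-4* OE, against 86.3, 11.8 and 77.3 in WT, and 3 of 6 were lower. In all 3 lists WT replicate 2 was the WT library nearest to *fmo-4* OE. Hypodermis markers, which include *dpy-7*, summed to 450, 1105 and 1167 in *fmo-4* OE, against 474, 604 and 1372 in WT, and overlapped. Most of this sum was *col-19*, with 7583, 24172 and 23886 reads in *fmo-4* OE, against 9116, 10242 and 33664 in WT. Log2 fold changes in this list were 0.10 for *col-19*, 2.18 for *dpy-7*, 0.16 for *grd-10* and -0.10 for *elt-3*, and *rol-6* was not tested. The part of worm stage in the values of *nhr-25*, *nhr-91* and the targets of NHR-23 and NHR-25 was not tested. *nhr-60* followed another order in WT, where WT replicate 2 was the lowest.

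**Figure D5:**
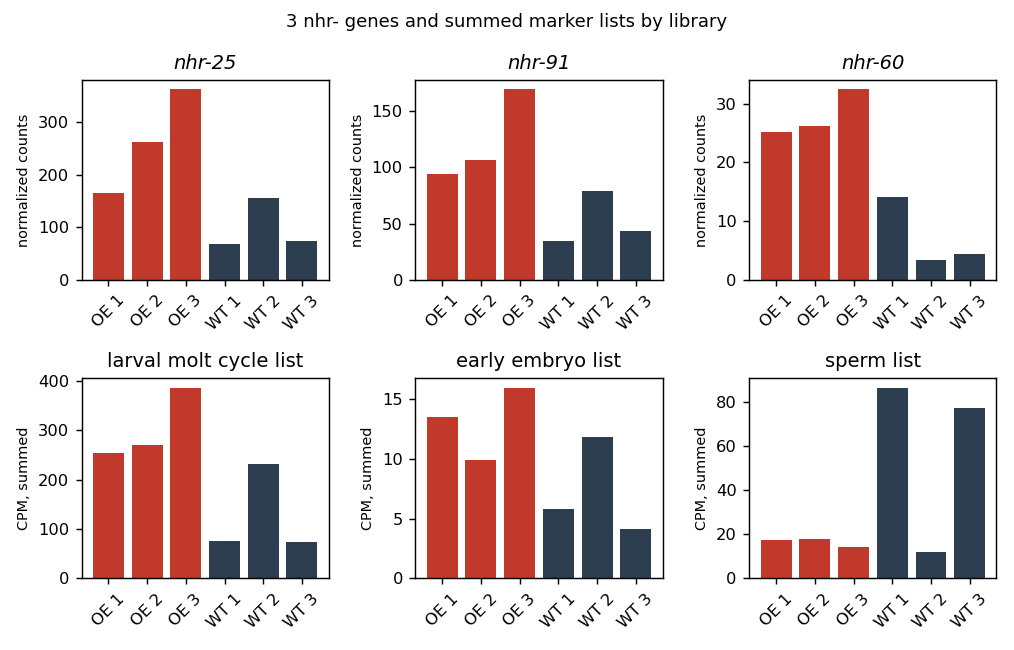
Top row, normalized counts of *nhr-25*, *nhr-91* and *nhr-60* in each of the 6 libraries; bottom row, summed CPM of the larval molt cycle, early embryo and sperm marker lists in the same libraries (red *fmo-4* OE, dark blue WT). WT replicate 2 is the highest WT library for *nhr-25* and *nhr-91* and for the molt cycle list (233, against 75.5 and 72.9), and the lowest for the sperm list (11.8, against 86.3 and 77.3).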

How the data were processed

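Poly-A RNA of whole day 1 adults was sequenced in 3 *fmo-4* OE and 3 WT libraries. The authors deposited read counts per gene without normalization. The submitters' processing notes name fastp, HISAT2, StringTie and featureCounts, without versions, and the genome build is not given in the sources used here. Values derived by the authors (normalized values, fold changes, p-values) were not used, among them 66 columns of single libraries. Of 20138 gene identifiers, 19873 were matched to WormBase genes through annotations of WBcel235, used for names only.

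Counts were analysed with edgeR 4.0.16 and limma 3.58.1 in R 4.3.3: filterByExpr at its defaults, TMM, robust glmQLFit and glmQLFTest over 13413 genes, with Benjamini-Hochberg adjustment over all of them. The common biological coefficient of variation was 0.297. To normalize, each count was divided by the ratio of its library's effective size to the mean of all 6. RPKM, with the deposited gene length, and CPM were computed here from the counts. The standard error is the absolute log2 fold change divided by the square root of F. The code was tested on simulated data with 200 changed genes. These were genes of higher counts, with less spread between libraries than here and no split in composition. That test therefore does not cover receptors with few reads. P-values measure the spread between 3 libraries a group.

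Named genes were receptors with an unadjusted p-value under 0.05, the 10 highest in level, those in the role lists, and genes of other lists under 0.05; further genes of the lists, *nhr-82*, *nhr-89* and the genes of runs were picked after their values were seen. Members and lists were chosen with earlier results of these data known. The list genes *hsd-1*, *irg-6* and *med-1* had no match and were not analysed. Alternatives were RLE factors, no TMM factors, DESeq2 1.42.0, no filter, at least 10 counts in every library, replicate number as a block, the composition of the libraries (*fmo-4* OE replicates 2 and 3 and WT replicate 3 against the rest) as a covariate, and each library left out.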

Additional observations from a re-analysis of the deposited data

How the results depend on the processing

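Under all 13 alternatives no receptor passed an adjusted p-value of 0.05 (edgeR, or DESeq2 where named). Receptors at an unadjusted p-value under 0.05 numbered 3 higher and 6 lower in the comparison as reported. They numbered 6 higher and 7 lower of 247 without the filter (2.43% and 2.83%, where 4.05% of all genes were higher and 2.44% lower). With library composition as a covariate they numbered 7 higher and 7 lower (3.95% each, where 4.13% of all genes were higher and 5.24% lower). Leaving out 1 library gave 2 to 11 higher (1.09 to 5.95% of receptors) and 2 to 6 lower (1.09 to 3.30%), where fewer samples entered the fit. Of all genes, 1.59 to 6.96% were higher and 1.63 to 4.66% lower in these fits. DESeq2 left out no adjusted p-value of a receptor. The median log2 fold change was 0.011 without the filter, where 70 more low genes entered, and -0.083 to -0.0083 with 1 library left out, the value nearest 0 without *fmo-4* OE replicate 2. The difference in summed level was -108 to 13.5 CPM with 1 library left out. Deviations of same-numbered libraries from their group means correlated at 0.43, -0.31 and 0.36, and those of differently numbered libraries at -0.58 to 0.51. With 3 libraries a group and their split in composition, these values cannot decide whether replicate numbers pair the libraries. With replicate number as a block there were 3 higher and 7 lower receptors (1.69% and 3.95%). Of all genes, 5.64% were higher and 3.77% lower in that fit. There *nhr-62* (log2 fold change -0.84) missed an unadjusted 0.05. It also missed it without TMM factors (-0.81), as did *acdh-1* (-0.32). Without the filter *nhr-62* (-0.79), *nhr-143* (-0.62) and *dpy-7* (2.23) missed it, and so did *dpy-7* with library composition as a covariate (2.08).

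Signs of small changes turned, and the cause was not tested. With 1 library left out, log2 fold changes ran from -0.16 to 0.16 for *nhr-114*, -0.13 to 0.0034 for *nhr-86*, -0.11 to 0.012 for *nhr-68*, -0.37 to 0.16 for *nhr-10*, -0.062 to 0.28 for *nhr-14* and -0.12 to 0.39 for *nhr-41*. They ran from -0.041 to 0.20 for *nhr-48*, -0.074 to 0.71 for *nhr-85*, -0.22 to 0.11 for *nhr-13*, -0.11 to 0.17 for *nhr-76* and -0.045 to 0.39 for *nhr-80*. They ran from -0.28 to 0.14 for *nhr-45*, -0.36 to 0.14 for *nhr-57* and -0.26 to 0.016 for *nhr-176*. With library composition as a covariate, they were -0.095 for *nhr-114*, 0.12 for *nhr-10*, -0.094 for *nhr-41*, -0.027 for *nhr-76*, -0.036 for *nhr-80* and 0.11 for *nhr-45*. The detected genes numbered 210 to 215 with 1 library left out. Depth limits the 70 receptors below the filter, which were tested in the alternative without it alone or when leaving out a library let them pass.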

Other observations

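Among the 70 receptors that did not pass the filter, a few had reads that separated the groups, and these were chosen with their values in view. The pseudogene *nhr-240* had 2, 3 and 1 reads in *fmo-4* OE, against 11, 9 and 12 in WT. *nhr-221* had 6, 13 and 23 reads in *fmo-4* OE, against 5, 3 and 1 in WT. *nhr-147* had 11, 7 and 16 reads in *fmo-4* OE, against 1, 4 and 0 in WT, and *nhr-81* had 12, 9 and 7 in *fmo-4* OE, against 4, 0 and 0 in WT. Without the filter, *nhr-240* (log2 fold change -2.30), *nhr-81* (2.75), *nhr-147* (2.68) and *nhr-221* (2.17) passed an unadjusted 0.05 in edgeR, and none passed adjustment. *nhr-199* also passed there, with 0 reads in all 3 *fmo-4* OE libraries, against 2, 3 and 2 in WT, and no fold is given since both groups lie within the limit of 3 reads.

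Of the 8 receptors tested with a log2 fold change of 1 or more in size, 4 missed an unadjusted 0.05, and all 4 lie on chromosome V. *nhr-205* had 20, 9 and 15 reads in *fmo-4* OE, against 58, 26 and 24 in WT (log2 fold change -1.26, edgeR adjusted p = 0.678). *nhr-270* had 24, 22 and 14 reads in *fmo-4* OE, against 5, 15 and 4 in WT (log2 fold change 1.28, SE 0.65). *nhr-127* had 12, 40 and 54 reads in *fmo-4* OE, against 11, 20 and 3 in WT (1.53, SE 0.75), and *nhr-150* had 20, 11 and 23 in *fmo-4* OE, against 4, 15 and 6 in WT (1.08, SE 0.65). The groups overlap in reads for *nhr-270*, *nhr-127* and *nhr-150*, and after normalization for library size they overlap for *nhr-205* too.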
